A study of Homo sapiens with 23 samples.

Results

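The replication-dependent histone genes encode the H1, H2A, H2B, H3 and H4 proteins that package newly made DNA. They were chosen by name, as the protein-coding genes with symbols H1-1 to H1-6 or symbols starting with H2AC, H2BC, H3C or H4C and a number. Of 70 such genes in the GENCODE annotation, 64 were matched to gene identifiers in the count files, among 57875 identifiers in all. They comprise 6 H1, 15 H2A, 18 H2B, 10 H3 and 15 H4 genes. The other 6 (H2AC18, H2AC19, H3C2, H3C3, H3C15 and H2BC12L) were not analysed here. In the files 53 members lie on chromosome 6, 10 on chromosome 1 and 1 on chromosome 12.

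The study asked how loss of Argonaute (AGO) proteins, which carry microRNAs to their target mRNAs, changes steady state RNA levels. RNAseq was done on HCT116, a human colorectal cancer cell line, in 5 genotypes with 3 biological replicates each: wild-type, AGO1 knockout, AGO2 knockout, AGO1/2 knockout and AGO1/2/3 knockout cells. The knockouts were made by CRISPR gene editing, and all lines were grown in the same medium without further treatment. Each knockout genotype is a single edited line, set against wild-type cells without an edit. Effects of the edit and of the individual line therefore cannot be told apart. The replicates measure the spread within a line only.

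Most of these genes carry no intron, and their mRNAs are the main class in animal cells without a poly(A) tail. Their transcripts end just after a short stem-loop that is bound by SLBP, the stem-loop binding protein, and cut with the help of the U7 small nuclear ribonucleoprotein. Transcription is driven by NPAT in histone locus bodies, and the mRNAs accumulate during S phase and are degraded when DNA synthesis stops. Libraries were made from total RNA after removal of ribosomal RNA, with no poly(A) selection, so these mRNAs could be measured.

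The stem-loop is the shared sequence that sets these mRNAs apart from others. All 64 members held a 16-base stem-loop within 1 mismatch of the searched forms in the 200 bases after the stop codon. The form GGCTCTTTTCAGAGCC was found in 35 members of the H1, H2A, H2B and H3 families. The form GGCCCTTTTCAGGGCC was found in 10 members, all of them H4 genes. The form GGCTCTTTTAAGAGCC was found in 9, among them 5 H2B genes, and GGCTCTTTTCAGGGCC in H2AC11. The other 9 members held a stem-loop with 1 base changed. The genes shown are those whose values the results below turn on. Each line gives the DNA strand of the mRNA from 5′ to 3′ in the hg38 genome, with 5 flanking bases on each side in lower case and the stem-loop in capitals.
H2BC11: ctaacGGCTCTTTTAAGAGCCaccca
H2AC11: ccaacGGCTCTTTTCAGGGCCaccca
H2BC13: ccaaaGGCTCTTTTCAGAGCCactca
H2AC25: ataaaGGCTCTTTTCAGAGCCaccta
H2BC26: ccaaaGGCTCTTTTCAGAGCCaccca
H2AC20: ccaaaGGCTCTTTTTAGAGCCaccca
H3C6: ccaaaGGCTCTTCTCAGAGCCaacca
H4C2: ccaatGGCCCTTTTCAGGGCCgccca
H4C8: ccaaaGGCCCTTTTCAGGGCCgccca
H4C15: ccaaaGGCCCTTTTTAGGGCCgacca

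The sites of H2BC11, chr6:27132316-27132341, and of H2BC13, chr6:27807479-27807504, lie on the minus strand. So do those of H4C2, chr6:26026896-26026921, of H4C8, chr6:26285126-26285151, of H4C15, chr1:149860764-149860789, and of H2AC25, chr1:228457364-228457389. The sites of H2AC11, chr6:27133510-27133535, of H3C6, chr6:26225591-26225616, of H2AC20, chr1:149887386-149887411, and of H2BC26, chr1:228458533-228458558, lie on the plus strand. All are in the 3′ untranslated part of the single exon of the canonical transcript, from 24 bases (H4C2) to 50 bases (H2AC11) past the stop codon.

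Promoter windows from RefSeq (GRCh38.p14, 250 bases before to 50 after the start) were matched for 59 of the 64 members, 4 of which (H2BC5, H2BC12, H3C4 and H3C6) had a pair of windows and were counted once. The letters TATAAA on the gene's strand were present in 55.9% of these members and in 7.3% of all 35116 promoters of the same length. CCAAT on either strand was present in 83.1% against 34.6%, and TTTCGC on either strand in 35.6% against 5.4%. The 3 motifs were searched separately, and a match describes letters, not binding.

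Depth ranged from 27709971 to 45271146 counts per sample with a median of 30701840. AGO1 mRNA was 138.2, 107.8 and 146.4 CPM (counts per 1000000 of the scaled library) in wild-type cells and 28.7 to 39.5 CPM in the 9 samples of the 3 lines that lack AGO1. AGO3 mRNA was 46.0 to 57.4 CPM in the AGO1/2/3 knockout and 78.7 to 130.4 CPM in the other 12 samples. AGO2 mRNA was 378.7 to 459.2 CPM in wild-type, 261.8 to 314.0 CPM in AGO2 knockout, 320.7 to 364.5 CPM in AGO1/2 knockout and 517.7 to 557.5 CPM in AGO1/2/3 knockout cells. An edit can remove the protein and leave the mRNA, so the AGO2 mRNA does not check the AGO2 labels. The summed level of 8 colon epithelial markers was 1401 to 2741 CPM, that of 6 fibroblast markers 11.7 to 31 CPM and that of 5 blood markers 2.37 to 11.1 CPM over all samples. Single epithelial markers differed within this sum. In AGO1/2/3 knockout cells CDH1, ELF3 and EPCAM were below wild-type (log2 fold changes -3.51, -3.21 and -1.74) and KRT8 was above it (0.41). In the 3 AGO2 knockout files the header gives a different mode of Salmon, the quantification program, from that of the other 12, so a change of mode and loss of AGO2 cannot be told apart.

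Of the 64 members, 47 passed the filter on low counts and 17 did not. The 17 were at or under 0.61 CPM in every sample, and 3 of them (H3C4, H4C7 and H4C12) were listed at 0 throughout. All 17 lie on chromosome 6, 14 of them in runs and 3 singly (H3C4, H4C9 and H4C12). A run of 7 neighbours, H1-3, H4C6, H4C7, H3C7, H2BC9, H3C8 and H2BC10, failed the filter, as did a run of 4 (H2AC16, H1-5, H3C11 and H4C13) and a run of 3 (H2AC1, H2BC1 and H1-1). Several genes in these runs had a few counts, with 18 in a sample of H1-5 and 15 in a sample of H1-1 as the highest. Where a gene was listed at 0, a failed estimate cannot be told apart from absent RNA. H3C4 lies inside an unnamed readthrough gene, ENSG00000282988 (chr6:26195595-26199293), which also spans H2AC7 and was listed at 58.9 to 213.0 CPM.

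**Figure D1:**
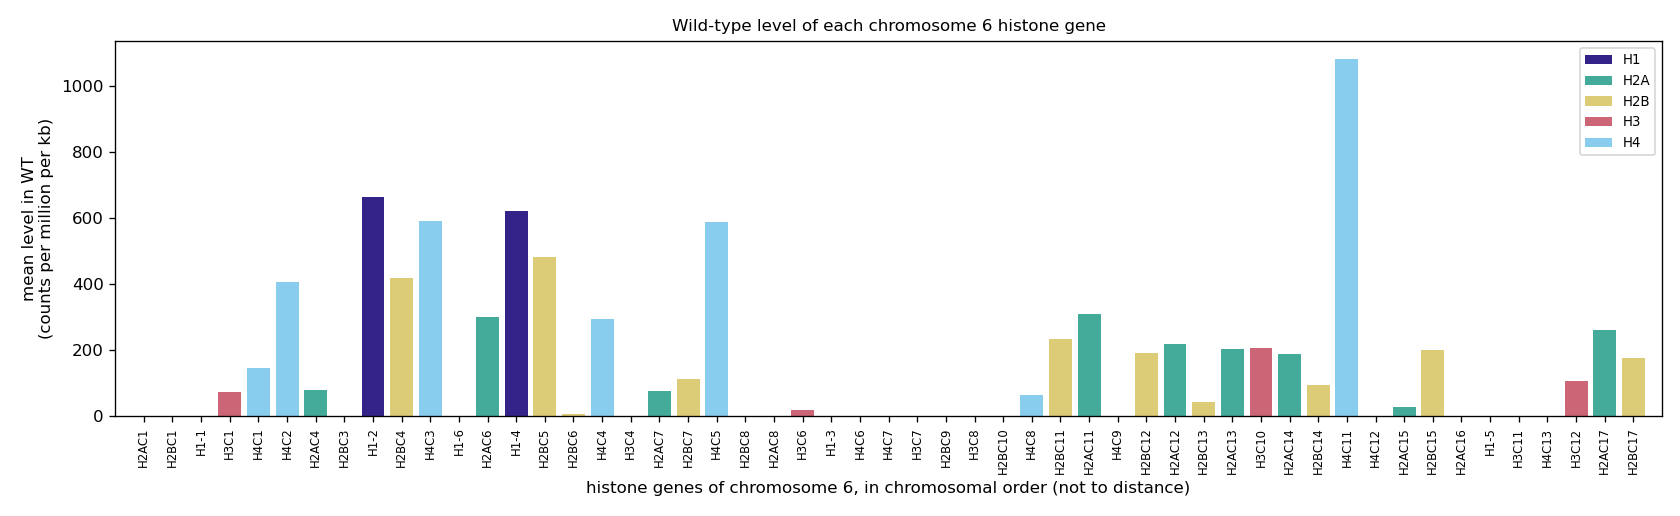
Mean wild-type level of the 53 chromosome 6 histone genes, in CPM per kilobase of canonical transcript on the vertical axis, placed in chromosomal order and coloured by family. High bars alternate with runs of genes at or near 0, the longest of them the 7 genes from H1-3 to H2BC10, and H4C11 stands highest.

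Levels between genes were compared per kilobase of the canonical transcript. H4C11 had the highest level, 1254 CPM per kb over the 15 samples, followed by H4C14 at 1160 CPM per kb. In the H1 family of linker histones the highest were H1-2 at 846.8 and H1-4 at 722.3 CPM per kb. H1-6, the linker histone of the testis, was at 1.56 CPM per kb, and H1-1, H1-3 and H1-5 were at or under 0.176 CPM per kb. H3C14 at 670.9 and H3C10 at 286.1 CPM per kb led the H3 genes. Among the H2A and H2B genes, which encode the dimer that flanks the H3 and H4 tetramer, the highest were H2AC11 at 441.2, H2AC6 at 366.1, H2BC5 at 626.2 and H2BC18 at 559.8 CPM per kb.

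Some members share sequence that short reads cannot assign to a single gene. H4C14 and H4C15 have identical canonical transcripts, without a single 31-base stretch of their own. For H3C14 0.8% of such stretches were found in no other member, and for H4C11 7.5%, the rest shared with H3C15 and H4C12. H2AC13 and H2AC14 shared 64.9% and 67.7% of theirs. For H2BC12 only 29.0% of stretches were its own, and 61.9% were shared with H2BC12L, which was not analysed. Stretches of their own made up 53.0% for H2BC18, 54.6% for H2BC13, 57.6% for H3C13, 58.6% for H2BC15 and 64.4% for H2AC20. Smaller parts were shared in several other members. Values of the genes named here are therefore uncertain singly. H2BC21 has a canonical transcript of 2224 bases, much of it past the stem-loop, so its level per kilobase is low if the short form prevailed.

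The histone genes were highest in AGO2 knockout and AGO1/2/3 knockout cells and lowest in wild-type cells. Their summed level was 7168, 3421 and 6144 CPM in the 3 wild-type samples. It was 8492, 7743 and 4935 CPM in AGO1 knockout, 6841, 4320 and 7018 CPM in AGO1/2 knockout, 8218, 9557 and 9871 CPM in AGO2 knockout and 8311, 8540 and 8074 CPM in AGO1/2/3 knockout cells. Every AGO2 and AGO1/2/3 knockout sample was above every wild-type sample, whereas AGO1 and AGO1/2 knockout samples overlapped wild-type.

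The mean was 5578 CPM ± 1937 (SD, n = 3) in wild-type, 7057 ± 1875 in AGO1 knockout, 6060 ± 1509 in AGO1/2 knockout, 9215 ± 878.0 in AGO2 knockout and 8308 ± 232.8 in AGO1/2/3 knockout cells. As ratios to the wild-type mean these were 1.27, 1.09, 1.65 and 1.49 in that order. In order of level, from wild-type through AGO1/2, AGO1, AGO1/2/3 to AGO2 knockout, the ranges of neighbours overlapped at every step. No test was made on the sum. Wild-type replicate 2 lowered the reference: without it the wild-type mean was 6656 CPM and the ratios were 1.06, 0.91, 1.38 and 1.25. In total the members took 0.368% to 0.964% of all counts.

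**Figure D2:**
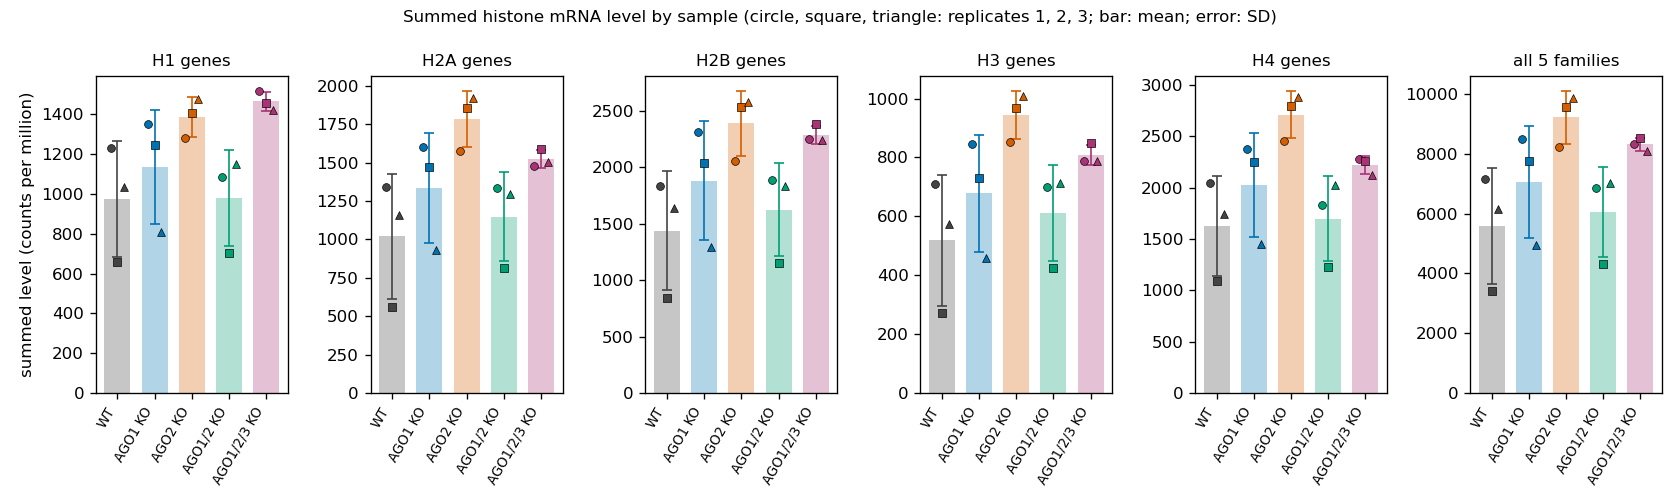
Summed level of the H1, H2A, H2B, H3 and H4 genes and of all 5 families, in CPM, with a bar per line (mean), error bars of 1 SD and a symbol for each replicate. The same replicates are low in every family, and the AGO1/2/3 knockout samples lie close together, from 8074 to 8540 for all families.

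The 5 families kept their proportions while the total varied. H4 genes took 26.7% to 29.4% of the histone level, H2B genes 25.8% to 27.5%, H2A genes 18.3% to 19.4%, H1 genes 15.1% to 17.6% and H3 genes 9.29% to 10.2%, as means of the 5 lines. The spread between replicates was also shared. Of the 44 members with a mean of at least 1 CPM, 41 had their lowest wild-type value in replicate 2, 42 their lowest AGO1 knockout value in replicate 3 and 42 their lowest AGO1/2 knockout value in replicate 2. The highest of 3 replicates was 2.10 times the lowest in wild-type and 1.06 times in AGO1/2/3 knockout cells.

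After removal of the line means, the level of a member correlated with the summed level of the others with a median Pearson r of 0.97 over 15 samples, and 39 of the 44 had r of at least 0.9. These points share library and depth. The exceptions with the lowest r were H4C15 at -0.62, H3C6 at -0.40 and H2BC6 at 0.42, all of low level, and H1-6 at 0.74. The remaining exception was H2AC20 at 0.84. For H4C15, H3C6 and H2BC6 the annotated exons span 1878, 2679 and 2585 bases, against canonical transcripts of 396, 482 and 470 bases. Exons beyond the canonical transcript were also annotated for members with high r, such as H2BC15 (4265 against 542 bases, r = 0.986). Counts per gene do not separate these forms, and whether this bears on r was not tested.

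Genes that act in S phase moved with the histone genes. A list of 21 such genes (MCM2 to MCM7, PCNA, CDC6, CDT1, RRM1, RRM2, cyclins E and A and others) had a mean level of 6.37, 4.95 and 6.41 log2 CPM in the wild-type samples, lowest in replicate 2 as for the histones. Over the 15 samples the Pearson r between this level and the log2 summed histone level was 0.94 and Spearman's rho was 0.91. Without the 2 samples farthest on the S-phase level, wild-type replicate 2 and AGO1 knockout replicate 3, r was 0.90, and over deviations from the line means r was 0.92. These are descriptions, without a test, of samples that share library and depth. In bulk RNA, fewer cells in S phase and less histone mRNA per cell cannot be told apart.

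**Figure D3:**
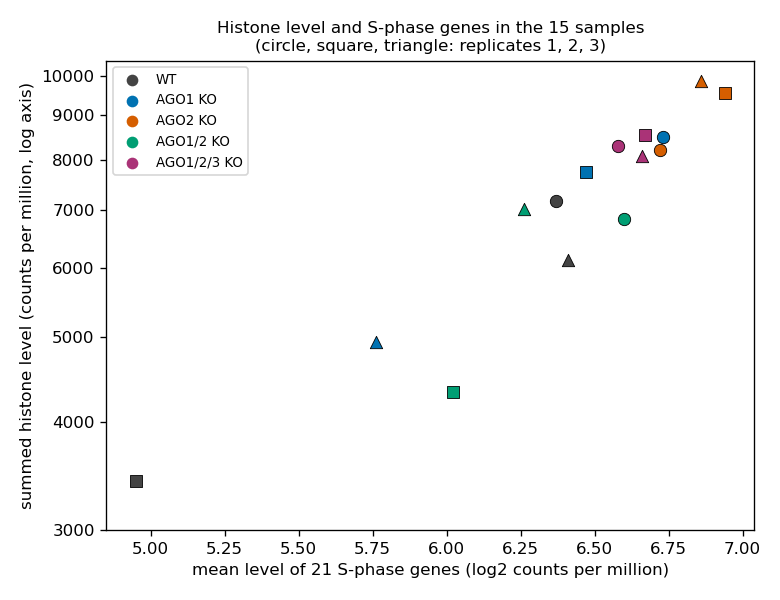
Summed histone level (CPM, log axis) against the mean level of 21 S-phase genes (log2 CPM) in each of the 15 samples, coloured by line. The points rise together from wild-type replicate 2 (4.95, 3421) to the AGO2 knockout replicates 2 and 3 (6.94, 9557 and 6.86, 9871).

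Among genes averaging 5 CPM or more that were not matched to the rule, the pattern most like the summed histone level was that of ENSG00000274267 (r = 0.992), followed by the readthrough gene ENSG00000282988 (r = 0.989) and PSMC3IP (r = 0.977). ENSG00000274267 is absent from the annotation used, as is ENSG00000272196 (r = 0.963), and neither can be told apart here from the 6 histone genes that found no identifier. ENSG00000282988 spans 2 members. The next by r with a symbol were EXO1, an exonuclease of DNA repair (0.974), BLM, a DNA helicase (0.963), and FANCI of the Fanconi anaemia pathway (0.962). These values are over 15 samples that share library and depth.

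In AGO2 knockout cells part of the histone genes rose above wild-type, in 4 of the 5 families. With edgeR's quasi-likelihood test, adjusted over 22842 genes by the method of Benjamini and Hochberg, 15 of the 47 tested members rose and 0 fell, where 8.55% of all genes rose. None of the 47 fell at an unadjusted p under 0.05 or by DESeq2 either. All 47 log2 fold changes were above 0 with a median of 0.79, against -0.02 over all genes. In 41 of 47 members the 3 AGO2 knockout values lay above the 3 wild-type values, which was so for 18.5% of all genes.

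The H4 family held 6 of the 15: H4C2, H4C3, H4C4, H4C14, H4C15 and H4C16, of 10 tested. H4C2 was 276.3, 329.3 and 353.5 CPM in AGO2 knockout and 198.6, 100.1 and 172.8 CPM in wild-type cells. All AGO2 knockout values were above the wild-type values, and its log2 fold change was 1.02 ± 0.24 (SE, adjusted p = 0.0123, edgeR). H4C4 was 219.7, 247.5 and 252.8 CPM against 152.5, 62.8 and 140.8 CPM, without overlap. Its log2 fold change was 1.02 ± 0.31 (adjusted p = 0.034, edgeR).

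Of the H2A genes 4 of 13 rose (H2AC4, H2AC7, H2AC13 and H2AC25), of the H2B genes 3 of 15 (H2BC5, H2BC13 and H2BC26) and of the H3 genes 2 of 6 (H3C6 and H3C14). H2BC13 was 39.3, 52.8 and 58.9 CPM in AGO2 knockout against 29.7, 6.22 and 22.9 CPM in wild-type cells. It had the largest change of the members that rose, a log2 fold change of 1.36 ± 0.44 (adjusted p = 0.0411, edgeR). H2AC4 was 80.9, 108.4 and 110.4 CPM against 53.1, 13.6 and 56.4 CPM, a log2 fold change of 1.28 ± 0.43 (adjusted p = 0.0475, edgeR). In both genes wild-type replicate 2 was well below the other wild-type samples. Of the 3 tested H1 genes none passed the test. For H1-2 the log2 fold change was 0.63 ± 0.23 (adjusted p = 0.0712, edgeR).

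The count of 15 depended on single libraries. For counts from fits that leave samples out, here and below, the share of all genes is not given. It was 2 without wild-type replicate 2, 27 without wild-type replicate 1 and 34 without AGO1 knockout replicate 3. Without AGO2 knockout replicates 1, 2 or 3 it was 9, 2 and 1, and without any of the 3 AGO1/2/3 knockout replicates it was 6. The 2 members that passed without wild-type replicate 2 were H4C2 (log2 fold change 0.76, adjusted p = 0.0488) and H4C15 (1.11, adjusted p = 0.0108). H4C15 was past the threshold under all 23 alternatives run for it. Its canonical transcript is identical to that of H4C14, so its counts are subject to how shared reads were split between them. The annotated exons of both genes span 1878 bases, against 396 in that transcript, and sequence outside it was not compared. Its values were 14.4, 9.27 and 11.8 CPM in AGO2 knockout and 4.74, 7.21 and 6.09 CPM in wild-type cells.

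The S-phase list was higher in the same comparison, with a median log2 fold change of 0.83. Of its 21 genes 4 (19.0%) rose (MCM2, MCM6, CDC6 and GINS2) and 0 fell, where 8.55% of all genes rose and 10.8% fell. Its mean level was 6.72, 6.94 and 6.86 log2 CPM in AGO2 knockout samples, above the 3 wild-type values. With this level as a covariate, a fit chosen after the data had been seen, 1 of the 47 members (H4C15, log2 fold change 1.35 ± 0.22, adjusted p = 0.00257, edgeR) was higher in AGO2 knockout than in wild-type cells. In that fit 0.858% of all genes were higher, down from 8.55%, so the drop was not limited to histone genes.

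In AGO1/2/3 knockout cells 11 of 47 members rose and 0 fell, where 20.3% of all genes rose and 19.8% fell. The share of members, 23.4%, was near that of all genes. At an unadjusted p under 0.05 only H4C8 was lower, and 0 were lower by DESeq2. The median log2 fold change was 0.57 over the members and -0.01 over all genes. Values did not overlap, with the knockout above, in 33 members (70.2%, against 26.3% of all genes), and with the knockout below in 1 (against 23.7%).

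The H2B family held 5 of the 11 (H2BC4, H2BC11, H2BC12, H2BC17 and H2BC21, of 15 tested). The others were H2AC6, H2AC11 and H2AC20 of 13 H2A genes, H1-2 of 3 H1 genes, H3C6 of 6 H3 genes and H4C15 of 10 H4 genes. H2BC11 was 236.9, 261.4 and 247.4 CPM in AGO1/2/3 knockout and 150.5, 53.5 and 133.3 CPM in wild-type cells, without overlap. It had the largest change, a log2 fold change of 1.14 ± 0.31 (adjusted p = 0.0085, edgeR).

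H2AC11 was 269.1, 284.8 and 277.6 CPM against 209.1, 67.5 and 178.4 CPM, a log2 fold change of 0.87 ± 0.31 (adjusted p = 0.0353, edgeR). H2BC17 was 147.5, 152.1 and 147.1 CPM against 106.4, 40.4 and 98.3 CPM, a log2 fold change of 0.87 ± 0.30 (adjusted p = 0.0324, edgeR). H2BC21 was 386.2, 413.8 and 392.0 CPM against 286.8, 146.6 and 253.3 CPM, a log2 fold change of 0.80 ± 0.22 (adjusted p = 0.0103, edgeR). In these 3 genes the knockout replicates lay within a narrow range and wild-type replicate 2 was the lowest of all 6 samples.

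H3C6, a member of low level, differed from most others in that its wild-type replicates lay close together. It was 13.3, 13.2 and 12.4 CPM in AGO1/2/3 knockout against 7.90, 9.37 and 8.89 CPM in wild-type cells, a log2 fold change of 0.57 ± 0.10 (adjusted p = 0.000336, edgeR). H2AC20 was 169.3, 189.2 and 183.7 CPM against 135.5, 89.8 and 114.3 CPM, a log2 fold change of 0.68 ± 0.18 (adjusted p = 0.00628, edgeR). H3C6, H2AC20, H2BC11 and H2BC21 were past the threshold under all 24 alternatives run for each of them. The alternatives started from the same counts and did not change how reads were assigned. This matters for H2AC20, part of whose sequence is shared with other histone genes. Nor did they set apart reads from annotated exons outside the canonical transcript, as in H3C6.

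Of the 11 members that rose here and the 15 that rose in the AGO2 knockout, 2 were in both sets, H3C6 and H4C15. These sets depend on the threshold. Log2 fold changes were above 0 for all 47 members in the AGO2 knockout and for 39 in the AGO1/2/3 knockout. In the AGO2 knockout H2BC11, for example, was at 0.79 (adjusted p = 0.0834) and H2AC11 at 0.85 (adjusted p = 0.0647, edgeR). Both comparisons use the same wild-type samples, and the difference between these 2 lines was not tested. The count of 11 was 5 without wild-type replicate 2, 21 without wild-type replicate 1 and 7 without wild-type replicate 3. It was 4, 5 and 4 without AGO1/2/3 knockout replicates 1, 2 and 3, and 7 without AGO2 knockout replicate 3 or AGO1/2 knockout replicate 3. Without all 3 AGO2 knockout samples it was 8. The count of 0 lower was 3 without wild-type replicate 2 and 1 without AGO1 knockout replicate 3 or AGO1/2 knockout replicate 2. Of the S-phase list 6 genes (28.6%) rose (GINS1, CCNA2, CCNE2, CDC6, CDK2 and E2F1) and 0 fell, where 20.3% of all genes rose and 19.8% fell. The mean level of the list was 6.58, 6.67 and 6.66 log2 CPM in the AGO1/2/3 knockout samples.

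**Figure D4:**
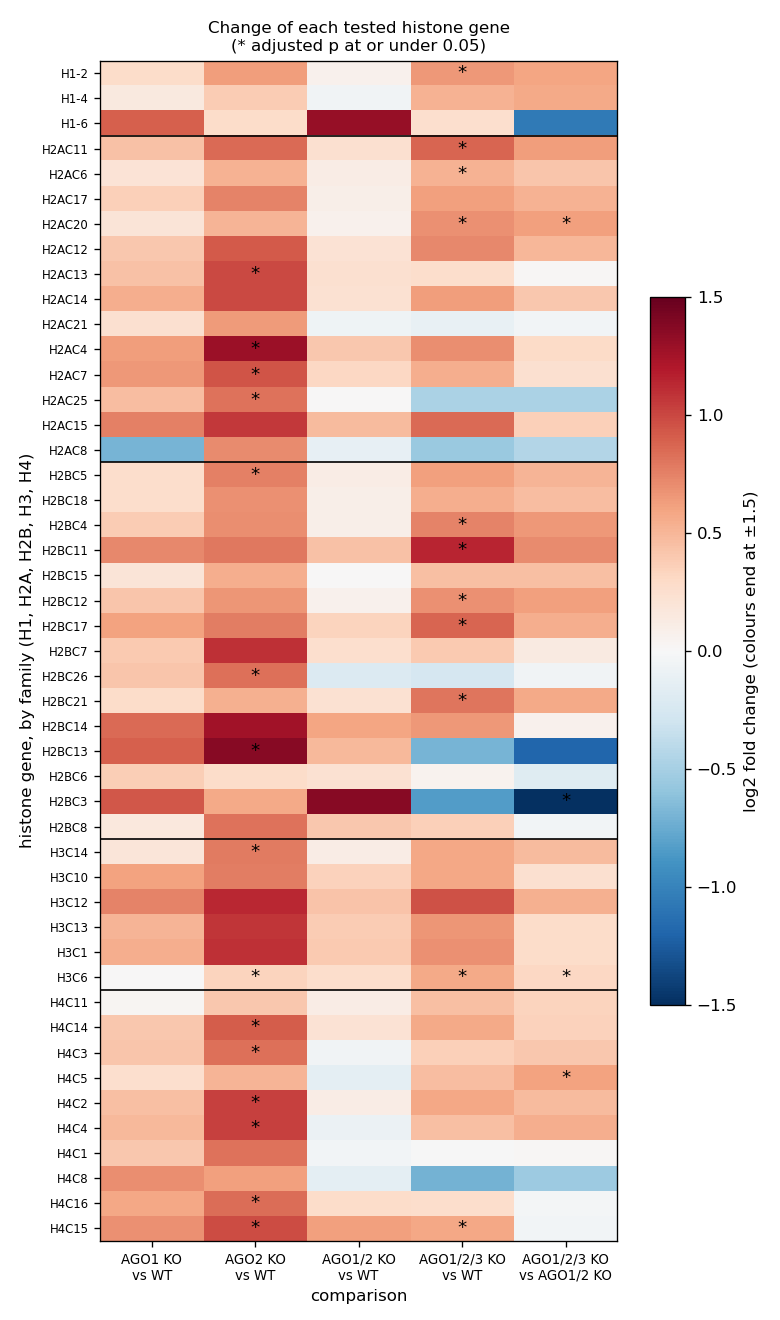
Log2 fold change of the 47 tested histone genes (rows, by family and then by wild-type level per kilobase) in the 5 comparisons (columns), from blue (lower) to red (higher), with an asterisk where the adjusted p was at or under 0.05. The AGO2 knockout column is above 0 in every row, whereas in the AGO1/2/3 knockout column 8 rows are below 0, H2BC13, H4C8, H2AC25 and H2BC26 among them.

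Some members had log2 fold changes below 0 in AGO1/2/3 knockout cells. H2BC13 was 12.4, 11.8 and 11.9 CPM, against 18.5 to 58.9 CPM in the 9 samples of the other knockout lines and 6.22 to 29.7 CPM in wild-type. H4C8 was 16.5, 15.7 and 14.7 CPM against 35.3, 17.1 and 24.3 CPM in wild-type cells, just below the wild-type range. H2AC25 was 15.9, 18.7 and 17.3 CPM against 29.9, 15.4 and 26.5 CPM, overlapping wild-type replicate 2. None of these passed the test: log2 fold changes were -0.70 ± 0.44 for H2BC13 (adjusted p = 0.229), -0.71 ± 0.30 for H4C8 (adjusted p = 0.0694) and -0.47 ± 0.23 for H2AC25 (adjusted p = 0.12, edgeR). Without wild-type replicate 2 these 3 genes fell, with log2 fold changes of -1.15 for H2BC13 (adjusted p = 0.0147), -0.96 for H4C8 (adjusted p = 0.0177) and -0.73 for H2AC25 (adjusted p = 0.0087, edgeR).

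As a share of all histone counts, which sets aside the summed level, these members stood apart. H2BC13 took 0.150%, 0.138% and 0.147% in the AGO1/2/3 knockout and 0.182% to 0.597% in the other 12 samples. H4C8 took 0.199%, 0.184% and 0.182% against 0.329% to 0.617%. H2AC25 took 0.192%, 0.219% and 0.214% against 0.372% to 0.535%, and H2BC26 0.458%, 0.515% and 0.523% against 0.683% to 0.991%. At the other end H2BC11 took 2.85%, 3.06% and 3.06% against 1.56% to 2.65%, and H2AC11 3.24%, 3.33% and 3.44% against 1.97% to 3.11%. These genes were picked after their values were seen, and the shares carry no test.

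**Figure D5:**
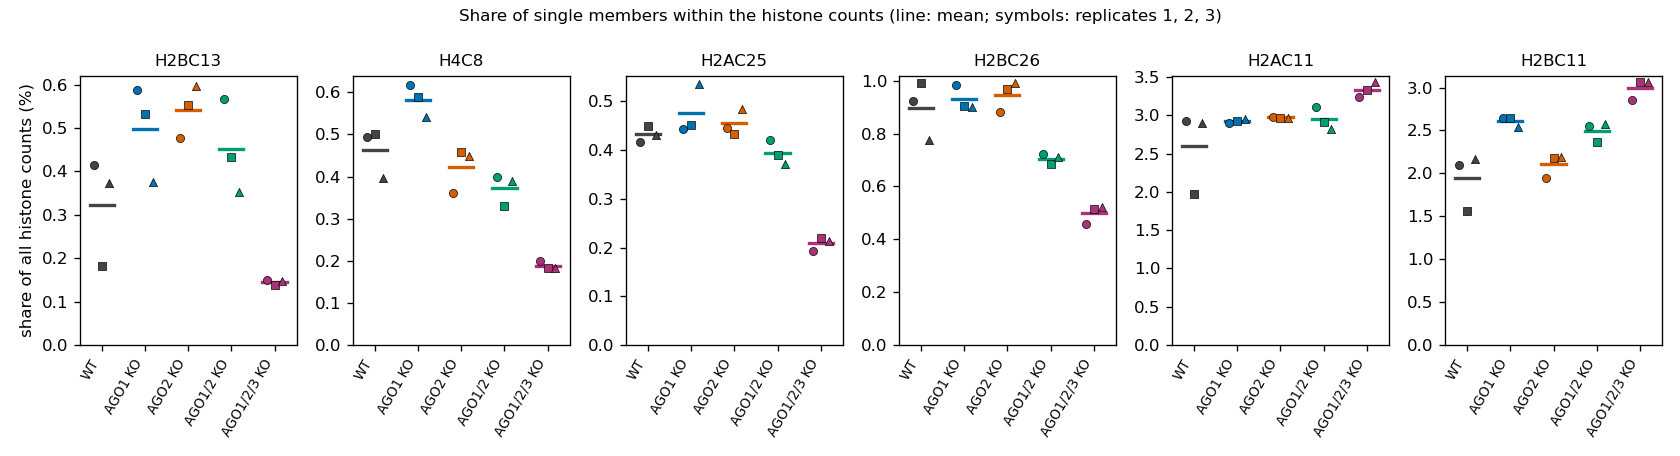
Share of all histone counts, in percent, taken by H2BC13, H4C8, H2AC25, H2BC26, H2AC11 and H2BC11 in each of the 15 samples, with a line at the mean of each genotype. For the first 4 genes the AGO1/2/3 knockout samples lie below the other 12 samples, and for H2AC11 and H2BC11 above them.

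Of the 44 members with a mean of at least 1 CPM, 7 had shares below those of the other 12 samples in all AGO1/2/3 knockout replicates (H2AC21, H2AC25, H2BC13, H2BC26, H4C1, H4C8 and H4C16) and 4 had shares above (H2AC11, H2BC4, H2BC11 and H2BC21). In wild-type cells 0 members lay below and 1 above all other samples in the same way. In the AGO1 knockout 2 lay below and 1 above, in the AGO2 knockout 2 below and 3 above, and in the AGO1/2 knockout 1 below and 0 above. The members include 12 pairs of an H2A and an H2B gene that diverge from each other with at most 300 bases between their annotated ends, and both genes averaged at least 1 CPM in 10. In 2 of these 10 pairs both shares lay outside the other samples in the same direction: H2AC25 and H2BC26, both below, on chromosome 1 with 229 bases between them, and H2BC11 and H2AC11, both above, on chromosome 6 with 247 bases. In 3 pairs only 1 gene did (H2BC13 but not H2AC13, H2BC4 but not H2AC6, and H2BC21 but not H2AC20), and in 5 neither did.

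With the S-phase level as a covariate, again a fit chosen after seeing the data, 5 members were higher in AGO1/2/3 knockout than in wild-type cells, all of them among the 11 (H2AC20, H2BC11, H2BC21, H3C6 and H4C15), and 8 were lower. In that fit 19.9% of all genes were higher and 19.1% lower. The members lower were H2BC13 (log2 fold change -1.51 ± 0.14, adjusted p = 4.72e-07), H4C8 (-1.21 ± 0.22, adjusted p = 0.000347), H2AC25 (-0.88 ± 0.14, adjusted p = 9.08e-05, edgeR), H2BC26, H2AC21, H2AC13, H2BC7 and the low H2AC8. H2BC11 was at 0.56 ± 0.14 (adjusted p = 0.00531) and H3C6 at 0.62 ± 0.12 (adjusted p = 0.000479, edgeR).

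Neither AGO1 knockout nor AGO1/2 knockout cells gave a member past the threshold. In AGO1 knockout cells 0 of 47 members rose or fell by edgeR, where 3.17% of all genes rose and 5.5% fell. At an unadjusted p under 0.05, 6 were higher and 0 lower, and DESeq2 called 1 higher. The log2 fold change was above 0 for 46 of 47 members with a median of 0.42. H2BC11 was 224.8, 205.3 and 125.4 CPM against 150.5, 53.5 and 133.3 CPM in wild-type, overlapping, with a log2 fold change of 0.72 ± 0.31 (adjusted p = 0.181, edgeR). Counts were 1 higher without AGO1 knockout replicate 2 or 3 or wild-type replicate 1 or 2.

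In AGO1/2 knockout cells 0 of 47 members rose or fell, where 8.37% of all genes rose and 8.35% fell. At an unadjusted p under 0.05, 3 were higher and 0 lower, and DESeq2 called 1 higher. The median log2 fold change was 0.22. H4C5 was 239.9, 159.8 and 255.1 CPM against 292.0, 185.5 and 247.5 CPM, with a log2 fold change of -0.15 ± 0.20 (adjusted p = 0.683, edgeR), and H1-2 had 0.06 ± 0.23 (adjusted p = 0.909). The count was 1 higher without AGO1/2 knockout replicate 2, AGO1 knockout replicate 3 or wild-type replicate 1 or 2.

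The comparison of AGO1/2/3 with AGO1/2 knockout cells asks what loss of AGO3 adds. Of 47 members 3 rose and 1 fell, where 11.9% of all genes rose and 10.0% fell, so both shares of calls (6.38% and 2.13%) were below the background. The median log2 fold change was 0.35 over the members and -0.01 over all genes. H2AC20 was 169.3, 189.2 and 183.7 CPM against 127.1, 82.6 and 146.1 CPM, a log2 fold change of 0.61 ± 0.18 (adjusted p = 0.0215, edgeR). H4C5 was 338.8, 337.2 and 318.7 CPM against 239.9, 159.8 and 255.1 CPM, a log2 fold change of 0.60 ± 0.20 (adjusted p = 0.0412, edgeR). For H3C6, at 13.3, 13.2 and 12.4 CPM against 10.7, 10.7 and 9.99 CPM, the log2 fold change was 0.31 ± 0.10 (adjusted p = 0.0393, edgeR). The replicates of the 2 lines did not overlap in any of the 3 genes. Over the 47 members they did not overlap in 24 (51.1%) with AGO1/2/3 knockout above, against 22% of all genes. With it below they did not overlap in 2 (4.26%), against 19.6% of all genes.

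H2BC3 fell, with a log2 fold change of -2.20 ± 0.73 (adjusted p = 0.0413, edgeR), but was low in both lines: 0.230, 0.105 and 0.203 CPM against 1.02, 0.379 and 1.18 CPM. The count of 3 was 10 without wild-type replicate 2 and 0 or 1 without any replicate of AGO1/2/3, AGO1/2 replicate 1 or 2, any AGO2 replicate or AGO1 replicate 2. The count of 1 lower was 2 without wild-type replicate 2, AGO1 replicate 3 or AGO1/2 replicate 2, and 0 without any AGO1/2/3 replicate, AGO2 replicate 3 or AGO1/2 replicate 1 or 3. With the S-phase level as a covariate 9 of 47 members were higher and 6 lower, where 14.8% of all genes were higher and 13.0% lower.

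Genes that make and process histone mRNA were examined as a list of 20, all tested. In AGO2 knockout cells 8 of them rose and 0 fell, against 8.55% of all genes. SLBP, which binds the stem-loops shown above, rose with a log2 fold change of 0.81 ± 0.21 (adjusted p = 0.018, edgeR). NPAT, the coactivator of histone genes, rose by 0.58 ± 0.13 (adjusted p = 0.00786) and CASP8AP2, a histone locus body protein, by 0.63 ± 0.15 (adjusted p = 0.0122, edgeR) on the log2 scale. The others were CPSF3, which cleaves the 3′ end, CSTF2, LSM1, ERI1, an exonuclease of the stem-loop, and UPF1, a helicase of histone mRNA decay. With the S-phase level as a covariate 0 of the 20 were higher. In that fit 0.858% of all genes were higher, down from 8.55%, and 2.49% lower, so the drop was not limited to this list. There SLBP was at 0.27 ± 0.10 (adjusted p = 0.143), NPAT at 0.30 ± 0.09 (adjusted p = 0.105) and CASP8AP2 at 0.29 ± 0.11 (adjusted p = 0.16, edgeR). NCBP1 was lower at -0.48 ± 0.10 (adjusted p = 0.0169, edgeR).

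In AGO1/2/3 knockout cells 3 of the 20 rose (NPAT, NCBP1 and LSM11) and 3 fell (NCBP2, SYMPK and MIF4GD), 15% each way, where 20.3% of all genes rose and 19.8% fell. With the covariate 2 were higher (CTIF and LSM11) and 4 lower (MIF4GD, NCBP2, SRRT and SYMPK), where 19.9% of all genes were higher and 19.1% lower. LSM11, a subunit of the U7 particle, rose by 0.64 ± 0.16 (adjusted p = 0.00413) and MIF4GD, which binds SLBP, fell, at a log2 fold change of -0.70 ± 0.16 (adjusted p = 0.00289, edgeR). ERI1 rose in AGO1 knockout cells (5% of the list, against 3.17% of all genes) and was the only call there. NCBP2 fell in AGO1/2 knockout cells (5%, against 8.35% of all genes), again the only call. Against AGO1/2 knockout cells LSM11 and ZNF473, another processing factor, rose and MIF4GD fell in AGO1/2/3 knockout cells. These shares, 10% higher and 5% lower, were below the 11.9% and 10.0% of all genes. LSM10 and HINFP passed in no comparison. RNU7-1, the U7 RNA gene, was listed at 0, and the files may not hold reads of so short an RNA.

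Histone chaperones and assembly factors were a list of 18, all tested. In AGO2 knockout cells 6 (33.3%) rose and 0 fell, where 8.55% of all genes rose and 10.8% fell. With the S-phase level as a covariate 0 were higher or lower, where 0.858% of all genes were higher and 2.49% lower. The 6 included CHAF1A and CHAF1B of the chromatin assembly factor that loads new H3 and H4 (log2 fold changes 0.86 ± 0.29 and 0.86 ± 0.27, adjusted p = 0.0481 and 0.0399, edgeR). In AGO1/2/3 knockout cells 7 (38.9%) rose and 2 (11.1%) fell, where 20.3% of all genes rose and 19.8% fell. With the covariate 5 were higher, all among the 7, and 4 lower, where 19.9% of all genes were higher and 19.1% lower. ASF1A, an H3 and H4 chaperone, rose by 0.89 ± 0.14 (adjusted p = 0.000111) on the log2 scale, and IPO4, an importin that carries H3 and H4 to the nucleus, fell, at a log2 fold change of -1.0 ± 0.17 (adjusted p = 0.000205, edgeR). No chaperone passed in AGO1 or AGO1/2 knockout cells.

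Replication-independent variants, whose mRNAs are polyadenylated, were a list of 12 with 11 tested. H2AZ2 rose in AGO1/2/3 knockout cells by 1.26 ± 0.14 (adjusted p = 3.37e-06, edgeR) and also in AGO2 and AGO1/2 knockout cells. H3-3B, which encodes H3.3, rose in AGO1/2/3 knockout cells by 0.68 ± 0.09 (adjusted p = 3.21e-05, edgeR).

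Another 19 named protein-coding genes lie between the first and the last histone gene of chromosome 6, and 14 were tested. In AGO2 knockout cells 1 of the 14 rose (ABT1) and 0 fell, where 8.55% of all genes rose and 10.8% fell, with a median log2 fold change of -0.04, where the histone median was 0.79. In AGO1/2/3 knockout cells 4 rose (BTN2A1, BTN3A2, BTN3A3 and ZNF184) and 2 fell (HMGN4 and PRSS16), 28.6% and 14.3% against 20.3% and 19.8% of all genes, with a median of 0.11. In AGO1 knockout cells 4 (28.6%) fell, against 5.5% of all genes, and in AGO1/2 knockout cells 3 (21.4%) rose, against 8.37%.

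Small structural RNAs without a poly(A) tail were a list of 9 with 7 tested. Their summed level was 45421 to 57260 CPM in wild-type samples and 68682 to 103247 CPM in the 12 knockout samples, so they took up counts unequally between lines. SNORD3A rose in every knockout line, by 1.54 to 2.91 on the log2 scale, and RN7SL1 by 0.74 to 1.0. RMRP rose in AGO1 knockout cells (log2 fold change 0.63 ± 0.18, adjusted p = 0.0391) and fell in AGO2 knockout cells (-1.02 ± 0.18, adjusted p = 0.00242), and TERC fell in AGO1/2/3 knockout cells (-0.70 ± 0.14, adjusted p = 0.00114, edgeR). When samples were scaled by their totals alone, 6 histone genes rose in AGO2 knockout cells, and 4 rose and 2 fell in AGO1/2/3 knockout cells. The share of all genes past the threshold under that scaling is not given here, so these counts cannot be set against it. That scaling moved the median of all genes to -0.14 and -0.15 on the log2 scale in these comparisons.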

How the data were processed

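RNAseq of 15 HCT116 samples was analysed, from 5 lines with 3 replicates each. Total RNA was depleted of ribosomal RNA, made into strand-specific libraries and sequenced as read pairs. The 8 eCLIP samples of the series were not used here. The deposited files hold estimated counts per Ensembl gene that the authors made with Salmon. The submitters' processing notes name STAR 2.5.3a, Salmon 0.11.0, DESeq2 and the build hg38. Values were rounded before testing. Identifiers were matched to GENCODE 44 (57167 of 57875).

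Genes were kept by filterByExpr, which left 22842, scaled by TMM and tested with edgeR 4.0.16 (glmQLFit and glmQLFTest, R 4.3.3) in a fit of all 15 samples with a mean per line. P-values were adjusted by Benjamini-Hochberg over all 22842 genes, with 0.05 as the threshold. Levels are CPM of the TMM-scaled library, with n = 3 and the SD over replicates. The common biological coefficient of variation was 0.152. DESeq2 1.42.0 and the other alternatives are given in the closing section. The fit was tested on simulated data.

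The members and lists were chosen with earlier results of these data known. Named members were the 2 of highest level per kilobase in each family, the H1 genes and, per comparison and direction, up to 4 called genes of largest change with a mean of at least 1 CPM. Also named were AGO1 to AGO3, listed genes of the context lists, chromosome 6 neighbours and the 3 genes outside the rule of highest correlation with the summed level. Others were named after their values were seen. Stem-loops were searched in the hg38 sequence and 31-base stretches among canonical transcripts. The study calls the 3 samples of a line biological replicates, and p-values measure the spread between samples of a single line each. No 2 of the 15 files held identical values. Figures were drawn with matplotlib 3.10.9 in Python 3.11.15.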

Additional observations from a re-analysis of the deposited data

Results flagged for a closer look

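The changes of 4 histone genes from wild-type differed between AGO1/2/3 and AGO1/2 knockout cells by the edgeR test of one line against the other, which is the test of that difference. It was 0.61 on the log2 scale for H2AC20 (adjusted p = 0.0215), 0.31 for H3C6 (adjusted p = 0.0393), 0.60 for H4C5 (adjusted p = 0.0412) and -2.20 for H2BC3 (adjusted p = 0.0413). All 3 AGO1/2/3 knockout replicates were above all AGO1/2 knockout replicates for H2AC20, H3C6 and H4C5 and below them for H2BC3. Over the alternatives the adjusted p ranged from 0.00573 to 0.102 for H2AC20, from 0.0222 to 0.225 for H3C6, from 0.0109 to 0.20 for H4C5 and from 0.00267 to 0.129 for H2BC3. AGO1/2 knockout replicate 2 was the lowest of its line for H2AC20 (82.6 CPM against 127.1 and 146.1), H4C5 (159.8 against 239.9 and 255.1) and H2BC3 (0.379 against 1.02 and 1.18). No test for outlying values was made within groups of 3 samples.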

How the results depend on the processing

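All counts below are of histone genes past the threshold. Except for the covariate fit, the share of all genes past it in each alternative is not given here. The counts therefore do not show whether histone genes shifted apart from other genes. Across the alternatives no called member changed direction. Among 2755 results for single genes, called or not in the main fit, 252 lost a call and 90 gained one. Only members called in the main fit could lose a call, so 252 is not to be read as a share of 2755. Per called result, the loss ranged from 0 of 23 alternatives (H4C15, AGO2 knockout) to 17 of 23 (H3C6, AGO2 knockout). For AGO1 knockout against wild-type, the count higher (0) was 1 by DESeq2's Wald test, 4 with no filter on low counts and 4 with the S-phase level as a covariate. For AGO2 knockout, the count higher (15) was 6 by total counts only, 28 by DESeq2, 39 with no filter, 4 in a fit of only the 6 samples compared and 1 with the covariate. For AGO1/2 knockout, the count higher (0) was 1 by DESeq2, 2 with no filter and 1 with the covariate, which also gave 1 lower. For AGO1/2/3 knockout, the count higher (11) was 4 by total counts, 23 with no filter, 5 in a fit of only the 6 samples and 5 with the covariate. Its count lower (0) was 2 by total counts, 2 with no filter, 1 with at least 10 counts in every sample, 1 with only the 6 samples and 8 with the covariate. For AGO1/2/3 against AGO1/2 knockout, the count higher (3) was 1 by total counts, 8 with no filter, 13 with only the 6 samples, 1 without the AGO2 knockout samples and 9 with the covariate. Its count lower (1) was 4 with no filter, 0 with at least 10 counts, 0 with the replicate block, 2 with only the 6 samples, 0 without the AGO2 knockout samples and 6 with the covariate. The cause of these shifts was not tested. DESeq2 size factors in edgeR left every count within 1.5 times. The covariate was chosen after seeing the data.

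With each sample left out in turn, the count higher ranged from 0 to 1 for AGO1, 1 to 34 for AGO2, 0 to 1 for AGO1/2 and 4 to 21 for AGO1/2/3 knockout against wild-type, and from 0 to 10 for AGO1/2/3 against AGO1/2 knockout. The count lower ranged from 0 to 3 for AGO1/2/3 knockout against wild-type and from 0 to 2 against AGO1/2 knockout. The summed level of AGO1/2/3 knockout cells was 7999 CPM by total counts, against 8308. The other lines moved by less than 1 SD.

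With the replicate number as a block, counts higher were 17 for AGO2 and 12 for AGO1/2/3 knockout, and 2 for AGO1/2/3 against AGO1/2 knockout. Samples of the same number share only a number: deviations from the line means correlated at -0.0112 on average over 30 same-numbered pairs, with 8 pairs over 0.1. The fits rest on 3 samples a line, and the wild-type replicates differed by 2.10 times in the summed level and by more in single genes such as H2BC13.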
